A study of Mus musculus with 6 samples.

Results

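The spliceosome removes introns from pre-mRNA, and the core protein families of this machine were examined here: the Snrp genes (Sm and other small nuclear ribonucleoprotein, or snRNP, proteins), U2af, Sf3a, Sf3b, Prpf and the numbered Lsm genes. They were chosen by symbol alone, as every row of the deposited count table whose name begins with Prpf, Snrp, Sf3a, Sf3b, U2af or Lsm followed by a digit. There were 48 such genes among 23079 rows: 12 Snrp, 3 U2af, 3 Sf3a, 5 Sf3b, 13 Prpf and 12 Lsm genes. All 48 were among the 16766 genes with enough counts to be tested. Prefix and function are not the same thing, since several Lsm proteins act outside splicing and some spliceosome proteins have other names.

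RNA was measured in 3 Satb1 knockdown libraries, from mice injected with AAV1 carrying a Satb1 shRNA-EGFP construct, and in 3 control libraries, from mice injected with AAV1 carrying a scrambled shRNA-EGFP construct. Both groups therefore received virus, hairpin and EGFP, a green fluorescent reporter, and all animals were 4-month-old Dat bacTRAP mice on a C57BL/6 background. Dat bacTRAP mice carry a tagged ribosomal protein under the control of the dopamine transporter gene, but the labels give total RNA and no capture step, and the dissected regions were the ventral tegmental area and the pars compacta of the substantia nigra, taken from 1 mm coronal midbrain slices. The labels count 3 mice for the 6 libraries without assigning them, so p-values measure only the spread between libraries, which may be technical, and the titles speak of siRNA where the treatment text names shRNA.

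The libraries held 147486754 to 164554674 counts in the knockdown and 160792736 to 170351145 in the control. Levels are given in CPM, counts relative to the total of each library, after scaling by the trimmed mean of M-values (TMM), and 1 count was worth 0.00557 to 0.00672 CPM. Satb1, the chromatin organiser targeted by the hairpin, had 82.9, 166 and 61.2 CPM in knockdown libraries 1 to 3, against 351, 349.6 and 319.8 CPM in control libraries 1 to 3. Its log2 fold change was -1.72 ± 0.26 (SE; edgeR quasi-likelihood test with Benjamini-Hochberg adjustment over all tested genes, adjusted p = 0.00106), and knockdown library 2 kept the most Satb1. The summed level of 8 dopaminergic markers was 7876 to 9971 CPM in the knockdown and 11722 to 12904 CPM in the control, with 5 of the 8 lower at an adjusted p under 0.05. The summed level of 8 oligodendrocyte markers was 588 to 665 CPM in the knockdown and 376 to 435 CPM in the control, with 7 of the 8 higher. Astrocyte markers summed to 240.4 to 247 CPM in the knockdown and 259.6 to 308 CPM in the control (2 of 8 higher, 1 lower), a sum set mostly by Slc1a2 at 177 CPM in the knockdown and 245 CPM in the control, while 7 of the 8 log2 fold changes were above 0, with a median of 0.57. Microglial markers summed to 20.7 to 26.6 CPM in the knockdown and 22.7 to 24.4 CPM in the control (2 of 8 higher, 1 lower), with P2ry12 at 13.8 CPM in the knockdown and 18.9 CPM in the control, and 7 of the 8 log2 fold changes were above 0, with a median of 1.06. Endothelial markers summed to 2.59 to 3.03 CPM in the knockdown and 2.31 to 2.96 CPM in the control (1 of 5 higher), and markers of other neurons to 234 to 349 CPM in the knockdown and 219 to 270.3 CPM in the control (0 of 4, and 0 by DESeq2, by limma-voom or at an unadjusted p under 0.05). No marker of these lists was at 0 in any library. The labels do not settle whether the libraries are whole dissected tissue or captured RNA. From marker levels a smaller share of 1 cell type and less RNA per cell cannot be told apart. Whether the changed marker levels contribute to the differences below was not tested.

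The spliceosome is built anew on each intron. U1 binds the 5' splice site, the U2AF proteins bind the 3' splice site and help to bring in U2 with its SF3A and SF3B complexes, and the U4/U6 and U5 particles then join as a tri-snRNP that is rearranged into the catalytic machine. Rings of Sm proteins surround the U1, U2, U4 and U5 RNAs, whereas a related ring of LSm proteins binds the end of U6 RNA and another LSm ring acts in mRNA decay in the cytoplasm. Neurons add a tissue-specific Sm protein, SmN, made from the imprinted Snrpn gene.

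Promoter sequence was available in RefSeq (GRCm38.p6) for 38 of the 48 genes, including 10 of the 12 that passed the test. The windows of the 5 Prpf genes that fell and of Sf3b3, the gene that rose, are printed to show how unlike each other they are in base composition. Each runs 5' to 3' along the gene's own strand and covers the 250 bases before the RefSeq start, and capitals mark matches on either strand to the motif CCAAT, to the GC box GGGCGG, to the TATA box TATAAA and to the ETS core CCGGAAG, so that ATTGG, for example, marks CCAAT on the other strand. The windows are chr15:99294991-99295240 (plus strand) for Prpf40b, chr7:3629735-3629984 (plus) for Prpf31, chr4:108579337-108579586 (minus) for Prpf38a, chr3:108911730-108911979 (minus) for Prpf38b, chr13:34875279-34875528 (plus) for Prpf4b and chr8:110846804-110847053 (minus) for Sf3b3. For Prpf40b and Prpf4b the gene start in GENCODE M21 lies inside the window, at chr15:99295087 and chr13:34875302. Most of each of these windows therefore lies downstream of the GENCODE start.
Prpf40b: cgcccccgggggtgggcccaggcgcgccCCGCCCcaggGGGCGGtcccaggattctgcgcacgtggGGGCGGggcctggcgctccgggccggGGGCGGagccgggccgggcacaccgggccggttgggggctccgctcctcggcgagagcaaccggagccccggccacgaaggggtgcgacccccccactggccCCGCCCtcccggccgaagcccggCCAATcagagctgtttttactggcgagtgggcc
Prpf31: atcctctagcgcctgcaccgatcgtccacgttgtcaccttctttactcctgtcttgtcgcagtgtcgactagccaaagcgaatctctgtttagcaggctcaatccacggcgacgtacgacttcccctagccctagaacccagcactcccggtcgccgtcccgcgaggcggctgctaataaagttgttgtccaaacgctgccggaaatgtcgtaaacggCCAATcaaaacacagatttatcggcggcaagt
Prpf38a: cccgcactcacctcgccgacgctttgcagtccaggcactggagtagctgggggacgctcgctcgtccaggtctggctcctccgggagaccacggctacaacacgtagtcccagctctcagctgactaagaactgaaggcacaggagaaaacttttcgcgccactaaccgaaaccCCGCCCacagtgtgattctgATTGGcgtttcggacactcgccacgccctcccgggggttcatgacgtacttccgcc
Prpf38b: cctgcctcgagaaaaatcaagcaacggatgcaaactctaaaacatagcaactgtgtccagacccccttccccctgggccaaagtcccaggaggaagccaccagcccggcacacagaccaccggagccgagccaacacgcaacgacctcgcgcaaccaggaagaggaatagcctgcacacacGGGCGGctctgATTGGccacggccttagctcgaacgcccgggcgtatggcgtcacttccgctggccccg
Prpf4b: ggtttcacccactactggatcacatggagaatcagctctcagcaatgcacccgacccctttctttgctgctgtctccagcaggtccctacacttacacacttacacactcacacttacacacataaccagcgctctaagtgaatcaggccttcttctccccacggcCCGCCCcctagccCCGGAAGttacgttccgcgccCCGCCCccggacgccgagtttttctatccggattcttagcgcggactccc
Sf3b3: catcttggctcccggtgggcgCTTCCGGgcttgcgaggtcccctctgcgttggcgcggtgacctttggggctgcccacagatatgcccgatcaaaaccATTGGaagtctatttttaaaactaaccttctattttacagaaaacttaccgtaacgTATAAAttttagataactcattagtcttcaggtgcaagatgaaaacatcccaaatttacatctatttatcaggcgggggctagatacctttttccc

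CCAAT lay close to the RefSeq start in 4 of the 5 Prpf windows. Its first base was at position -33 in Prpf40b and -32 in Prpf31. On the other strand it was at -56 in Prpf38a and -58 in Prpf38b. Positions count the base before the RefSeq start as -1, whatever the start in GENCODE. The window of Prpf4b held no CCAAT, with the GC box on the other strand at -84 and -50 and the ETS core at -71. In Sf3b3 it lay farther away, at -152 on the other strand, and that window also held TATAAA at -96. GC content was 79.6% for Prpf40b, 54.8% for Prpf31, 61.2% for Prpf38a, 62.0% for Prpf38b, 57.2% for Prpf4b and 45.6% for Sf3b3. Among the 38 spliceosome genes with a window, 17 held CCAAT (44.7%), 20 the GC box (52.6%), 11 the ETS core (28.9%) and 2 TATAAA (5.26%). The shares over all 27025 RefSeq promoter windows of that length were 34.5% for CCAAT, 32.9% for the GC box, 7.05% for the ETS core and 13.0% for TATAAA. The median GC content was 57.0% over the spliceosome windows and 52.0% over all windows. All windows took in genes whatever their level in these libraries, and no comparison with the windows of tested genes alone was made. Of the 9 windows of genes that fell, 6 held CCAAT, 7 the GC box and 1 the ETS core, and of the 28 windows of genes that did not pass the test, 10 held CCAAT, 13 the GC box and 9 the ETS core. Motif matches describe letters in a window and are not evidence of a bound factor, and no test of these shares was made.

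The knockdown was set against the control to ask which transcripts differ between the groups. Of the 48 spliceosome genes, 11 fell and 1 rose in the knockdown, judged at an adjusted p under 0.05. These are 22.9% lower and 2.08% higher, against 12.6% lower and 8.48% higher over all tested genes, and 19.7% lower and 9.94% higher over the 10046 tested genes within the same range of mean level (7.73 to 1501 CPM). In this fit the share that fell thus lay near that of equally abundant genes. With the replicate number as a block in the fit, 19 of the 48 were lower, against 2614 of the 10046 genes in the same range. The median log2 fold change was -0.19 for the 48 genes, 0.01 for all tested genes and -0.07 for those in the same range. A log2 fold change below 0 was found for 36 of the 48 genes (75.0%), for 48.8% of all tested genes and for 58.5% of those in the same range. The differences were small: 6 of the 48 genes (12.5%) passed with a difference of at least 1.5-fold in the unrounded fit, against 9.92% of all tested genes and 11.3% of those in the same range. With scaling by total counts alone the median was -0.02 for the 48 genes, 0.18 for all tested genes and 0.10 for those in the same range. The distance from the median of all tested genes stayed at -0.20, because a change of scaling moves every gene by nearly the same amount. Under this scaling 24 of the 48 genes were below 0. Of the 48, 6 passed as lower and 2 as higher, against 5.8% lower and 16.5% higher over all tested genes. DESeq2 and limma-voom gave the same counts for the 48 genes as edgeR, 11 lower and 1 higher, with 15.1% lower and 12.4% higher over all genes by DESeq2 and 13.2% lower and 8.72% higher by limma-voom. The number that fell was 7 when control 1, control 2 or knockdown 1 was left out, where 8.91%, 7.7% and 6.64% of all tested genes fell in this order, and 9 or 10 when any other library was.

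**Figure D1:**
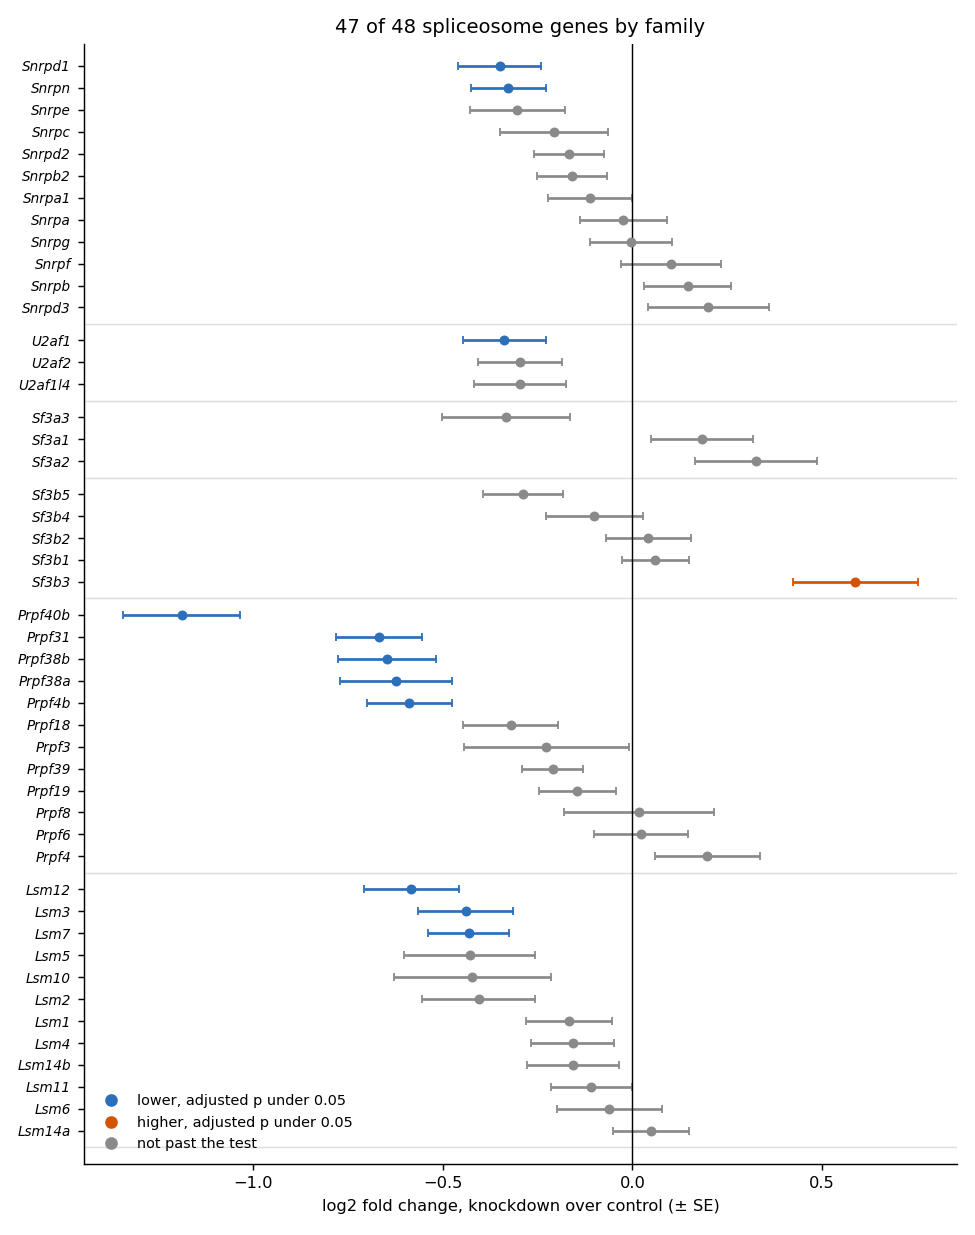
Log2 fold change (knockdown over control, horizontal axis, ± SE) of 47 of the 48 spliceosome genes, 1 row per gene and grouped by family, with genes past an adjusted p of 0.05 marked by colour. Prpf40b lies farthest to the left at -1.19 and Sf3b3 farthest to the right at 0.59, while Sf3b1, Prpf8 and Prpf6 lie close to 0.

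Among the proteins of the U1 particle and their partners stood the gene with the largest log2 fold change of the 48. Prpf40b, the mammalian relative of yeast Prp40, which links U1 at the 5' splice site to the branch point (gene number 54614; chr15:99295087-99317018, plus strand, GRCm38), had 10.4, 12.1 and 9.62 CPM in the knockdown libraries, against 21.3, 22.4 and 29.4 CPM in the control libraries. Every knockdown library lay below every control library by a wide margin. The mean was 10.7 ± 1.28 CPM in the knockdown and 24.4 ± 4.40 CPM in the control (SD, n = 3 each), which gave a log2 fold change of -1.19 ± 0.15 (SE; edgeR, adjusted p = 0.000504). It was the 1 gene of the 48 that changed by at least 2-fold.

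Prpf39, another U1 partner known from yeast, was very even within each group, with 353, 351 and 362 CPM in the knockdown and 416, 412 and 406 CPM in the control. It missed the threshold (log2 fold change -0.21 ± 0.08, adjusted p = 0.0793). Of its exon bases 599 overlap Fkbp3 on the opposite strand. Fkbp3 was as even, with 488, 484 and 506 CPM in the knockdown and 564, 562 and 561 CPM in the control (log2 fold change -0.19). Within each group the libraries ranked in the same order for both genes. Whether reads shared with Fkbp3 contribute to the level and evenness of Prpf39 was not tested. Snrpa and Snrpc, proteins of the U1 particle itself, had log2 fold changes of -0.02 and -0.21 and did not pass the test. With total-count scaling Snrpa had 0.15.

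Of the 5 proteins that act around activation of the spliceosome and in its catalytic steps, 3 fell. The median log2 fold change was -0.59, and all 5 values were below 0 by TMM. With total-count scaling 4 of 5 were below 0, and Prpf19 had 0.02. Of tested genes in the same range of mean level as the 48 genes, 19.7% fell and 58.5% had a log2 fold change below 0. Of 23 further genes of the Prp19 complex and the catalytic stage 4 fell, and their median log2 fold change was -0.03. Whether genes of this stage differ from other genes was not tested. Prpf4b, a kinase that phosphorylates tri-snRNP proteins during assembly of the B complex (gene number 19134; chr13:34875302-34906064, plus strand), had 48.1, 54.8 and 61.4 CPM in the knockdown and 77.4, 81.0 and 88.6 CPM in the control. Prpf38b had 22.8, 22.9 and 28.8 CPM in the knockdown and 34.8, 38.4 and 43.4 CPM in the control. Prpf38a, the relative of yeast Prp38, which is needed to release U4, had 10.8, 13.6 and 15.2 CPM in the knockdown and 22.6, 18.9 and 19.5 CPM in the control. In each of these genes all knockdown libraries lay below all control libraries. The log2 fold changes were -0.59 ± 0.11 for Prpf4b (SE; edgeR, adjusted p = 0.00328), -0.65 ± 0.13 for Prpf38b (adjusted p = 0.00442) and -0.62 ± 0.15 for Prpf38a (adjusted p = 0.011). The call for Prpf38a was lost without knockdown 1 (adjusted p = 0.0536). Exons of Prpf4b share 36 bases with the noncoding Gm36839 on the opposite strand. The ratio of Prpf38b to Prpf38a averaged 1.90 ± 0.21 in the knockdown and 1.93 ± 0.35 in the control (SD, n = 3 each; exact permutation p = 1).

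Prpf19, the ubiquitin ligase that names the Prp19 complex, did not pass the test, with 88.3, 91.0 and 107.8 CPM in the knockdown and 102, 106 and 109 CPM in the control (log2 fold change -0.14, adjusted p = 0.347). Knockdown library 3 alone lay within the control range. Prpf18, a factor of the second catalytic step, had 25.5, 28.7 and 30.5 CPM in the knockdown and 40.6, 31.8 and 33.4 CPM in the control (log2 fold change -0.32, adjusted p = 0.0895), which do not overlap.

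**Figure D2:**
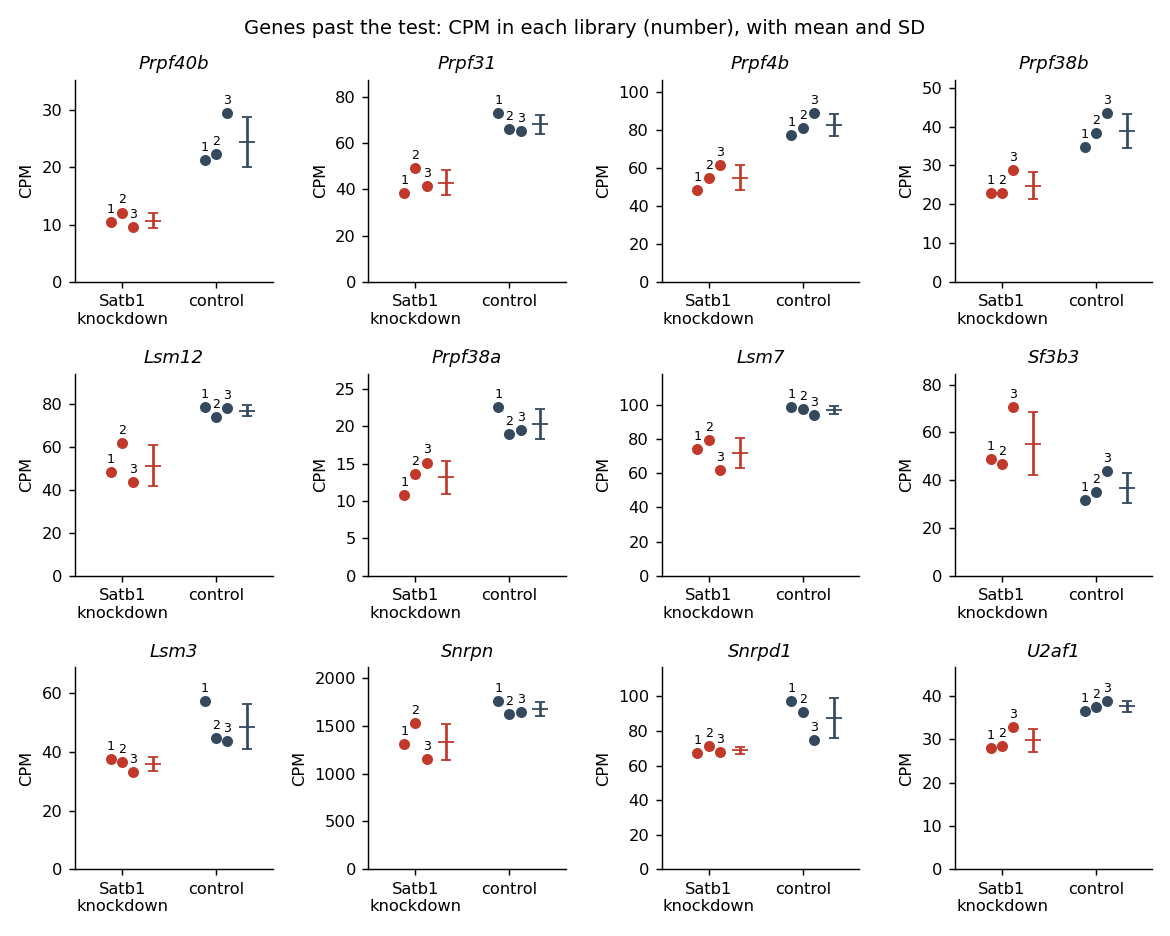
CPM (vertical axes, starting at 0) of the 12 spliceosome genes past the test, 1 panel each, knockdown libraries to the left and control libraries to the right, numbered by replicate, with the mean and SD of each group. In all 12 panels the groups do not overlap, and Sf3b3 is the panel in which the knockdown libraries are the higher ones.

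Among the proteins of U5 and U4/U6 only Prpf31 passed the test. Prpf31, which binds U4 RNA, joins the U4/U6 particle to U5 and is a retinitis pigmentosa gene in humans (gene number 68988; chr7:3629985-3642486, plus strand), had 38.4, 49.1 and 41.4 CPM in the knockdown and 72.9, 66.3 and 65.5 CPM in the control. The highest knockdown library was still well below the lowest control library. Its log2 fold change was -0.67 ± 0.11 (SE; edgeR, adjusted p = 0.00186). Reads from 984 of its exon bases overlap the noncoding transcript Gm15927 on the opposite strand, and 16.1% of its 50-base words occur in transcripts of that gene.

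Prpf8, the large U5 protein at the catalytic centre, varied widely between libraries, with 289, 313 and 521 CPM in the knockdown and 295, 366 and 448 CPM in the control. Library 3 was the highest of each group, and the group means of 374 ± 127 CPM in the knockdown and 369.9 ± 76.6 CPM in the control differed by far less than this spread (SD, n = 3 each; log2 fold change 0.02 ± 0.20, SE, adjusted p = 0.965). Prpf6, the bridge between U5 and U4/U6, had a log2 fold change of 0.02, and the U4/U6 proteins Prpf4 and Prpf3 had 0.20 and -0.23. None of these 4 passed the test (the smallest adjusted p was 0.353, for Prpf4), nor did DESeq2 or limma-voom call any of them.

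The Sm ring was led by Snrpn. Per exon length Snrpn, which encodes the neuronal SmN protein (gene number 20646; chr7:59982495-60140219, minus strand), reached 617 RPKM (CPM per kilobase of exon) in the knockdown and 774 RPKM in the control, while the next most abundant of the 48 genes, Lsm4, reached 57.6 RPKM in the knockdown and 64.3 RPKM in the control. Snrpn had 1312, 1530 and 1153 CPM in the knockdown and 1757, 1617 and 1639 CPM in the control. It made up 31.6%, 34.4% and 26.5% of the summed CPM of all 48 genes in knockdown libraries 1 to 3 and 35.2%, 33.2% and 32.6% in control libraries 1 to 3. The groups did not overlap, though knockdown library 2 came close to the control range. The log2 fold change was -0.33 ± 0.10 (SE; edgeR, adjusted p = 0.0335), a 1.25-fold difference. That call was lost without control 1 (adjusted p = 0.107), control 2 (0.0792), control 3 (0.0683), knockdown 1 (0.113) or knockdown 3 (0.117), and with total-count scaling (0.261). Snurf, the upstream reading frame of the same transcript, had 99.6% to 99.8% of the Snrpn count in the 6 libraries, so its row repeats that of Snrpn.

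Snrpb, whose SmB protein occupies the place in the ring that SmN takes in neurons, stood at 37.0, 37.5 and 44.1 CPM in the knockdown and 34.7, 33.5 and 38.9 CPM in the control. Its groups overlap (log2 fold change 0.15 ± 0.11, SE, adjusted p = 0.411). The ratio of Snrpn to Snrpb was 35.5, 40.8 and 26.2 in the knockdown and 50.6, 48.3 and 42.1 in the control, a quantity from which library scaling cancels. The mean ratio was 34.2 ± 7.41 in the knockdown and 47.0 ± 4.36 in the control (SD, n = 3 each; exact two-sided permutation test, p = 0.1, the smallest that 3 against 3 libraries allow, 0.167 adjusted over 5 paralog pairs). Knockdown library 2 lay closest to the control, at 40.8 against a lowest control ratio of 42.1.

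Snrpd1, the SmD1 subunit (gene number 20641; chromosome 18, from 10617775 to 10642079, plus strand), had 67.5, 71.1 and 67.7 CPM in the knockdown and 97.3, 90.7 and 74.9 CPM in the control. The groups are separate, but control library 3 was close to the knockdown range. Its log2 fold change of -0.35 ± 0.11 (SE; edgeR, adjusted p = 0.0386) did not pass without control 1 (adjusted p = 0.150), control 2 (0.132), knockdown 1 (0.130), knockdown 2 (0.0577) or knockdown 3 (0.0842), nor with total-count scaling (0.268). Snrpd2, the Sm gene with the highest CPM after Snrpn, had 136, 136 and 119 CPM in the knockdown and 146, 149.9 and 143 CPM in the control (log2 fold change -0.17, adjusted p = 0.230). The remaining ring subunits were Snrpe at -0.30, Snrpg at -0.00, Snrpf at 0.10 and Snrpd3 at 0.20, none past the test. Of Snrpf, 89.5% of the 50-base words also occur in transcripts of other genes, mostly the overlapping Ccdc38, so its value is uncertain. The median log2 fold change of the 12 Snrp genes was -0.13 by TMM and turned to 0.03 with total-count scaling, under which none of them passed as lower, while 0 passed as higher under either scaling.

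At the 3' splice site the 3 U2af genes had log2 fold changes between -0.34 and -0.30, and in each of them all knockdown libraries lay below all control libraries. A pattern of that kind, lower without overlap, was found in 20 of the 48 spliceosome genes. It was found in 3481 of 16766 tested genes (20.8%) and in 3084 of the 10046 in the same range of mean level. Higher without overlap were 2 of the 48, 3007 of all tested genes (17.9%) and 1764 of those in the same range. U2af1, the small subunit that reads the AG dinucleotide at the end of the intron (gene number 108121; chr17:31647081-31658892, minus strand), had 28.0, 28.5 and 32.8 CPM in the knockdown and 36.5, 37.5 and 38.9 CPM in the control. U2af2, the large subunit that binds the polypyrimidine tract, had 29.6, 36.2 and 32.7 CPM in the knockdown and 39.2, 41.8 and 40.0 CPM in the control. U2af1l4, a small-subunit paralog, had 23.7, 27.3 and 21.7 CPM in the knockdown and 32.0, 27.9 and 29.3 CPM in the control. The log2 fold change was -0.34 ± 0.11 for U2af1 (SE; edgeR, adjusted p = 0.0439), -0.30 ± 0.11 for U2af2 (adjusted p = 0.0760) and -0.30 ± 0.12 for U2af1l4 (adjusted p = 0.106), so only U2af1 passed, close to the threshold. It was lost with scaling by relative log expression (adjusted p = 0.0513), with total-count scaling (0.288), with a filter at a mean of 1 CPM (0.0620), and without control 1 (0.0780), control 2 (0.113), control 3 (0.120), knockdown 1 (0.170) or knockdown 2 (0.112). Of the 50-base words of the 3 genes, 21.7%, 14.7% and 42.4% in this order occur in other genes' transcripts, chiefly those of Gm10232, Gm5846 and Gm49396.

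Of the 10 U2 proteins, 1 rose and 0 fell by edgeR. Over tested genes in the same range of mean level 9.94% rose and 19.7% fell. Of the 10, 1 had an unadjusted p under 0.05 as lower, and DESeq2 and limma-voom also called 0 lower. The median log2 fold change of the 10 was -0.03, which turned to 0.14 with total-count scaling. Sf3b3, a large scaffold subunit of SF3B (gene number 101943; chr8:110810239-110846787, minus strand), was the 1 spliceosome gene that rose, with 48.7, 46.6 and 70.6 CPM in the knockdown and 31.7, 34.9 and 43.8 CPM in the control. The lowest knockdown library lay just above the highest control library, and library 3 was again the highest of each group. The mean was 55.3 ± 13.3 CPM in the knockdown and 36.8 ± 6.29 CPM in the control (SD, n = 3 each), and the log2 fold change was 0.59 ± 0.16 (SE; edgeR, adjusted p = 0.0237). The call was lost without control 1 (adjusted p = 0.0941), control 2 (0.0888) or knockdown 3 (0.0749). Its exons share 188 bases with Cog4 on the opposite strand, which was also higher, at 75.9 ± 9.42 CPM in the knockdown and 58.1 ± 3.80 CPM in the control (SD, n = 3 each).

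Sf3b1, the branch-point clamp that is mutated in human myelodysplasia, did not pass the test, with 225, 243 and 235 CPM in the knockdown and 241, 217 and 217 CPM in the control (log2 fold change 0.06 ± 0.09, SE, adjusted p = 0.683). Sf3b2 had 141, 156 and 183 CPM in the knockdown and 144, 152 and 170.5 CPM in the control (log2 fold change 0.04, adjusted p = 0.840). In both genes the groups overlap. The small subunit gene Sf3b5 leaned the other way, with 52.2, 48.6 and 43.0 CPM in the knockdown and 58.3, 61.4 and 56.0 CPM in the control (log2 fold change -0.29, adjusted p = 0.0721). The SF3A genes, which encode the trimer that joins SF3B to U2, had log2 fold changes of 0.18 for Sf3a1, 0.33 for Sf3a2 and -0.33 for Sf3a3, and none passed the test. For Sf3a3 knockdown library 3 alone lay within the control range: its levels were 27.4, 33.2 and 46.5 CPM in the knockdown and 42.3, 41.3 and 51.3 CPM in the control, and without that library its log2 fold change was -0.56 with an adjusted p of 0.0178. Sf3a2 had 9.65, 9.44 and 11.4 CPM in the knockdown and 7.36, 7.95 and 9.04 CPM in the control, without overlap, and passed as higher with total-count scaling alone. Its exons share 429 bases with Plekhj1 on the opposite strand, and 15.9% of its 50-base words occur in other genes' transcripts. The U2 proteins Snrpa1 and Snrpb2 had log2 fold changes of -0.11 and -0.16.

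The LSm genes that build the U6 and decay rings, Lsm1 to Lsm7, all had log2 fold changes below 0 by TMM. With total-count scaling 4 of 7 were below 0, and the medians were -0.41 by TMM and -0.23 with total counts. By TMM 2 of the 7 fell (28.6%), against 19.7% of tested genes in the same range of mean level. Lsm7 (gene number 66094; chr10:80852821-80855209, minus strand) had 74.6, 79.3 and 61.9 CPM in the knockdown and 98.8, 97.7 and 94.4 CPM in the control. Lsm3 (gene number 67678; chr6:91515928-91522625, plus strand) had 37.6, 36.7 and 33.1 CPM in the knockdown and 57.3, 44.8 and 43.6 CPM in the control. Both proteins belong to either ring, and both genes were lower in each knockdown library than in any control library. The log2 fold changes were -0.43 ± 0.11 for Lsm7 (SE; edgeR, adjusted p = 0.0132) and -0.44 ± 0.12 for Lsm3 (adjusted p = 0.0247). The call for Lsm7 was lost without control 2 (adjusted p = 0.0537), and that for Lsm3 without control 1 (0.110), knockdown 1 (0.0604) or knockdown 3 (0.0739), and total-count scaling removed both (0.101 for Lsm7 and 0.151 for Lsm3). Of the 50-base words of Lsm7, 14.3% occur in other genes' transcripts, and 174 exon bases of Lsm3 overlap AC161456.1 on the same strand.

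Lsm2 and Lsm5, whose proteins also belong to both rings, had log2 fold changes as large, -0.41 and -0.43, with adjusted p of 0.0723 and 0.0989. Of the 50-base words of Lsm5, 21% occur in other genes' transcripts, chiefly those of Gm7846. Lsm1, which distinguishes the decay ring, had -0.17, and Lsm4 had -0.16. Lsm6, the gene of the 7 with the highest mean CPM over all 6 libraries, had 104, 91.0 and 74.3 CPM in the knockdown and 111, 86.6 and 83.6 CPM in the control (log2 fold change -0.06, adjusted p = 0.804). The subunit that distinguishes the U6 ring, LSm8, is listed in the table under the name Naa38 (RefSeq symbol Lsm8), outside the name rule. That row had 24.0, 23.5 and 23.8 CPM in the knockdown and 34.3, 30.4 and 27.2 CPM in the control, without overlap (log2 fold change -0.36 ± 0.12, SE; edgeR, adjusted p = 0.0439). Its call was lost with scaling by relative log expression (0.0510), with total-count scaling (0.278), with a filter at a mean of 1 CPM (0.0599), and without each library other than control library 3 in turn, with adjusted p between 0.0846 and 0.164.

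Lsm genes outside the U6 and decay rings differed among themselves. Lsm12, which encodes a partner of ataxin-2 (gene number 268490; chr11:102162497-102185296, minus strand), had 48.2, 61.9 and 43.7 CPM in the knockdown and 78.5, 73.8 and 77.9 CPM in the control. No value overlapped, and the knockdown libraries spread more widely. Its log2 fold change was -0.58 ± 0.13 (SE; edgeR, adjusted p = 0.0066), and 11% of its 50-base words occur in Gm9727. Lsm14a, a P-body protein, did not differ beyond its spread, with 112, 103 and 129 CPM in the knockdown and 112.5, 108 and 112.6 CPM in the control (log2 fold change 0.05, adjusted p = 0.784). Its paralog Lsm14b had a log2 fold change of -0.16, and the ratio of Lsm14b to Lsm14a was 0.357 ± 0.0083 in the knockdown and 0.411 ± 0.0470 in the control (SD, n = 3 each; exact permutation p = 0.1, 0.167 adjusted over the same pairs). Lsm10 and Lsm11, subunits of the U7 particle that trims histone mRNA, had -0.42 and -0.11, with adjusted p of 0.173 and 0.521. Lsm10 had the lowest mean CPM of the 48 genes, at 6.60 ± 1.37 CPM in the knockdown and 8.85 ± 1.93 CPM in the control (SD, n = 3 each).

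**Figure D3:**
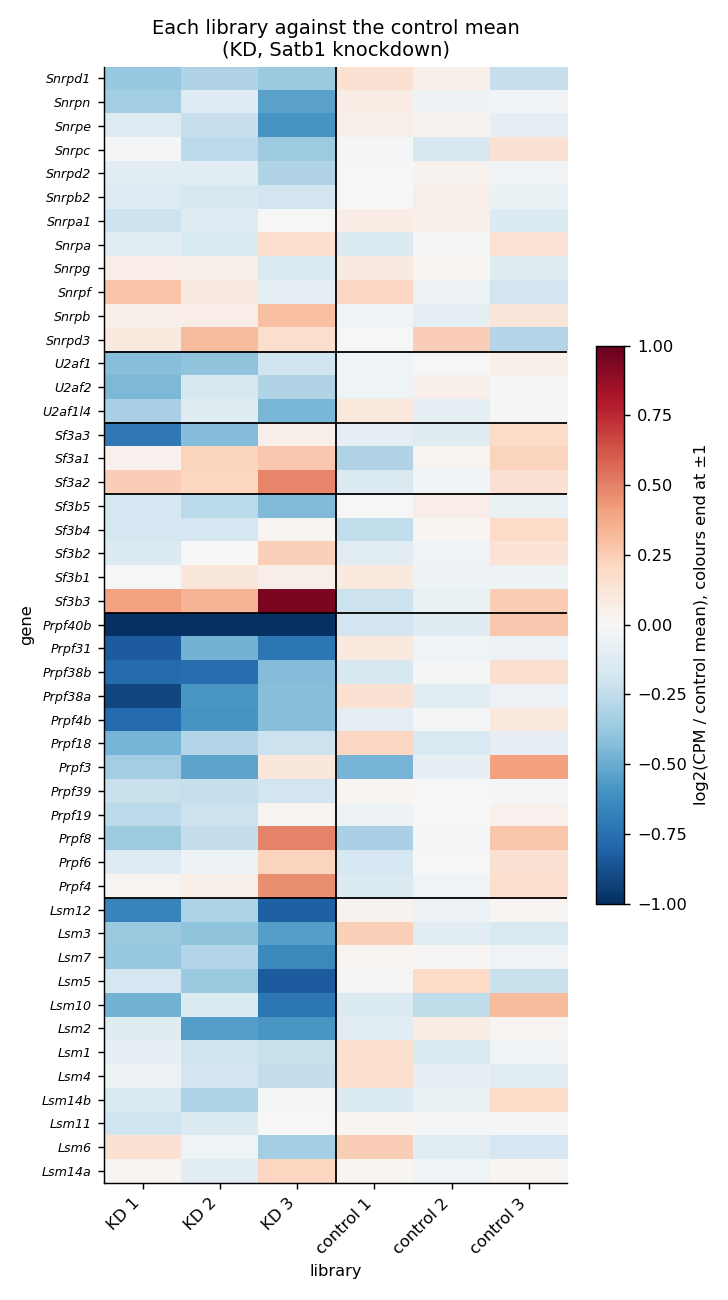
Log2 ratio of the CPM in each library to the control mean for 47 of the 48 genes (rows, by family), with the 3 knockdown libraries as the left columns and the 3 control libraries as the right columns and colours ending at ±1. Most Prpf and Lsm rows are blue, or below the control mean by TMM, in all knockdown columns, and Prpf8, Prpf4 and Sf3b3 are at their reddest in knockdown library 3.

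Each knockdown library had a similar overall shift, with median log2 ratios to the control mean of -0.17, -0.19 and -0.19 over the 48 genes in libraries 1 to 3. Which genes were high or low varied between libraries. Exon length went along with part of this: between knockdown libraries 3 and 1 the log2 difference in CPM (pseudocount 0.5 CPM) of the 48 genes correlated with exon length at Spearman's rho = 0.58. The 24 longer genes had a median difference of 0.24 and the 24 shorter genes one of -0.14. The same correlation was 0.53 between knockdown libraries 3 and 2, 0.16 between 2 and 1, and 0.38 between control libraries 3 and 1. Over 15757 tested genes with an exon length it was 0.17 for knockdown libraries 3 and 1 and 0.18 for control libraries 3 and 1. Between the groups the relation was weak, with rho = 0.14 between log2 fold change and exon length over the 48 genes and -0.02 over all tested genes. Of the shorter genes 6 fell and 0 rose, and of the longer genes 5 fell and 1 rose. These correlations run across genes, which share the same 6 libraries and are not independent replicates, and the part of exon length in the differences between the groups was not tested.

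**Figure D4:**
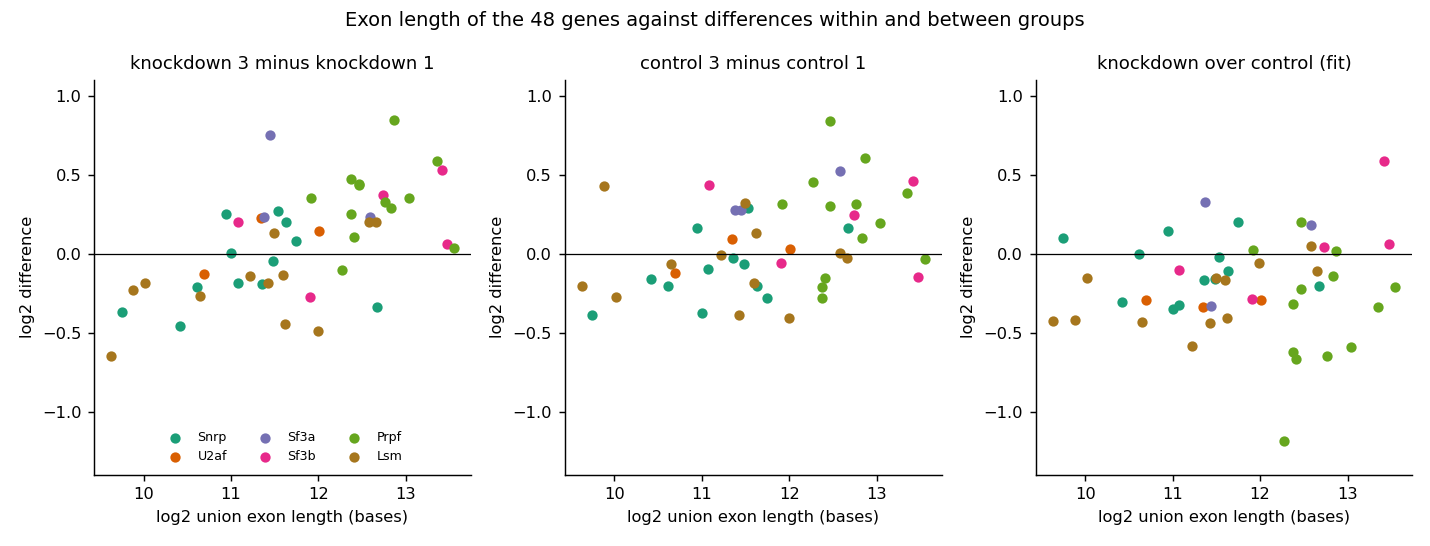
Log2 exon length (horizontal axis, bases) of the 48 genes, coloured by family, against the log2 difference in CPM between knockdown libraries 3 and 1 (left panel), between control libraries 3 and 1 (middle panel) and against the fitted log2 fold change of knockdown over control (right panel). The longer genes lie higher in the left panel (rho = 0.58) and less so in the middle panel (rho = 0.38), and the right panel shows little relation (rho = 0.14).

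Shared sequence limits some of these values. The exons of 15 of the 48 genes overlap another gene, 13 of them on the opposite strand, and 18 genes share at least 5% of their 50-base words with transcripts of other genes. Without knowing whether strand was used in counting, such reads cannot be told apart. Among the 23 genes with neither, 3 fell (Prpf40b, Prpf38a and Prpf38b; 13.0%, against 12.6% of all tested genes and 19.7% of those in the same range of mean level) and 0 rose by edgeR, 7 had an unadjusted p under 0.05 as lower and 0 as higher, and DESeq2 and limma-voom also called 0 higher.

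Splicing genes outside the 6 name families were compared in 8 lists of 97 genes. Of these, 17 fell and 3 rose (edgeR), which is 17.5% and 3.09% of the lists, against 12.6% lower and 8.48% higher over all tested genes and 19.7% and 9.94% over those in the range of mean level of the 48 genes, and 58.8% of the log2 fold changes were below 0. Their median was -0.03 by TMM and turned to 0.14 with total-count scaling, under which 10 fell and 12 rose, against 5.8% lower and 16.5% higher over all tested genes.

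Of 17 further tri-snRNP genes 4 fell. Zmat2, a component of the B complex known from yeast as Snu23, had 203, 218 and 190.2 CPM in the knockdown and 288, 311 and 293 CPM in the control (log2 fold change -0.54 ± 0.09, SE; edgeR, adjusted p = 0.00148). Ppih, a cyclophilin of the U4/U6 particle, had 19.6, 20.3 and 18.8 CPM in the knockdown and 31.2, 27.5 and 26.9 CPM in the control (log2 fold change -0.54, adjusted p = 0.00582). Both were lower in each knockdown library than in any control library. Cd2bp2, a U5 protein, had a log2 fold change of -0.40 (adjusted p = 0.018), which was lost without control 1 (adjusted p = 0.0675), control 3 (0.0533), knockdown 1 (0.0647) or knockdown 3 (0.0556), and with total-count scaling (0.139).

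Of 23 genes of the Prp19 complex and the catalytic stage 4 fell (17.4%). Cwc25, a factor of the first catalytic step in yeast, had 7.39, 9.29 and 8.63 CPM in the knockdown and 15.2, 15.6 and 21.99 CPM in the control (log2 fold change -1.06 ± 0.17, SE; edgeR, adjusted p = 0.00138). This was a 2.08-fold difference, close in size to that of Prpf40b. Syf2 and Cwc15, 2 proteins of the Prp19-associated complex, had log2 fold changes of -0.67 (adjusted p = 0.00241) and -0.45 (adjusted p = 0.00533). At the branch point 1 of 9 genes fell (11.1%, against the same 19.7%). This was Phf5a, the SF3B subunit that touches the branch-point adenosine. Phf5a had 54.0, 51.7 and 52.5 CPM in the knockdown and 82.5, 72.0 and 68.5 CPM in the control (log2 fold change -0.49, adjusted p = 0.00517). Phf5a fell where the SF3B subunits Sf3b1 and Sf3b2 did not pass the test, a difference between genes that was not tested. The row 0610009D07Rik, which RefSeq names Sf3b6, had 61.6 ± 4.5 CPM in the knockdown and 72.3 ± 4.51 CPM in the control (SD, n = 3 each; edgeR, adjusted p = 0.125). Of 7 other U1 and 5' splice site genes 0 passed the test in either direction by edgeR, DESeq2 or limma-voom, and 0 had an unadjusted p under 0.05.

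The assembly of snRNPs begins in the cytoplasm, where the SMN complex places the Sm ring on the RNA. Smn1, the spinal muscular atrophy gene, had 7.37, 13.1 and 8.63 CPM in the knockdown and 19.0, 18.2 and 19.1 CPM in the control. All knockdown libraries were lower, and knockdown library 2 lay closest to the control. The mean of Smn1 was 9.70 ± 3.01 CPM in the knockdown and 18.8 ± 0.48 CPM in the control (SD, n = 3 each), with a log2 change of -0.95 ± 0.19 (SE; edgeR, adjusted p = 0.00408). The assembly genes also held 2 that rose: Wdr77, a partner of the methyltransferase Prmt5 that modifies Sm proteins, had a log2 fold change of 0.38 (adjusted p = 0.0152; 0.0912 without control library 2), though its exons overlap Gm42890 and Atp5f1, and Sip1, which is Gemin2, had 0.59 (adjusted p = 0.0445). Sip1 was lost by limma-voom (adjusted p = 0.0523) and without control 2 (0.131), control 3 (0.130), knockdown 1 (0.133) or knockdown 2 (0.146). Coil, which encodes coilin of Cajal bodies, fell with a log2 fold change of -0.44 (adjusted p = 0.0204), lost when scaled by total counts (adjusted p = 0.130) or without control 1 (0.0739), control 3 (0.0508) or knockdown 1 (0.0797).

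Of 9 genes of the minor spliceosome 2 fell, Zrsr2, which recognises the 3' splice site of minor introns, with a log2 fold change of -0.60 (edgeR, adjusted p = 0.0033), and Zcrb1, with -0.35 (adjusted p = 0.0277). Of 9 exon junction genes 2 fell, the helicase gene Eif4a3 with -0.56 (adjusted p = 0.0105) and Rnps1 with -0.36 (adjusted p = 0.0157). Among 8 genes of LSm-linked mRNA decay, the decapping enzyme gene Dcp2 fell with a log2 fold change of -0.61 (adjusted p = 0.00144) and the helicase gene Ddx6 with -0.33 (adjusted p = 0.0209), while Patl1, the scaffold that binds the LSm ring, rose with 0.35 (adjusted p = 0.0471). Dcp2 had 147, 155 and 124 CPM in the knockdown and 225, 212 and 213 CPM in the control, well apart. Zcrb1 was lost when scaled by total counts (adjusted p = 0.229) or without control 1 (0.113), control 2 (0.0693), knockdown 1 (0.0803) or knockdown 3 (0.0838). Eif4a3 was lost without knockdown 1 (0.0601). Rnps1 was lost when scaled by total counts (0.145) or without control 1 (0.0563), control 2 (0.0587) or knockdown 1 (0.0803). Ddx6 was lost when scaled by total counts (0.202) or without control 2 (0.0925), control 3 (0.0641) or knockdown 1 (0.115). Patl1 was lost without each library other than knockdown library 2 in turn, with adjusted p between 0.0523 and 0.159, and with no filter on low counts (0.0527).

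**Figure D5:**
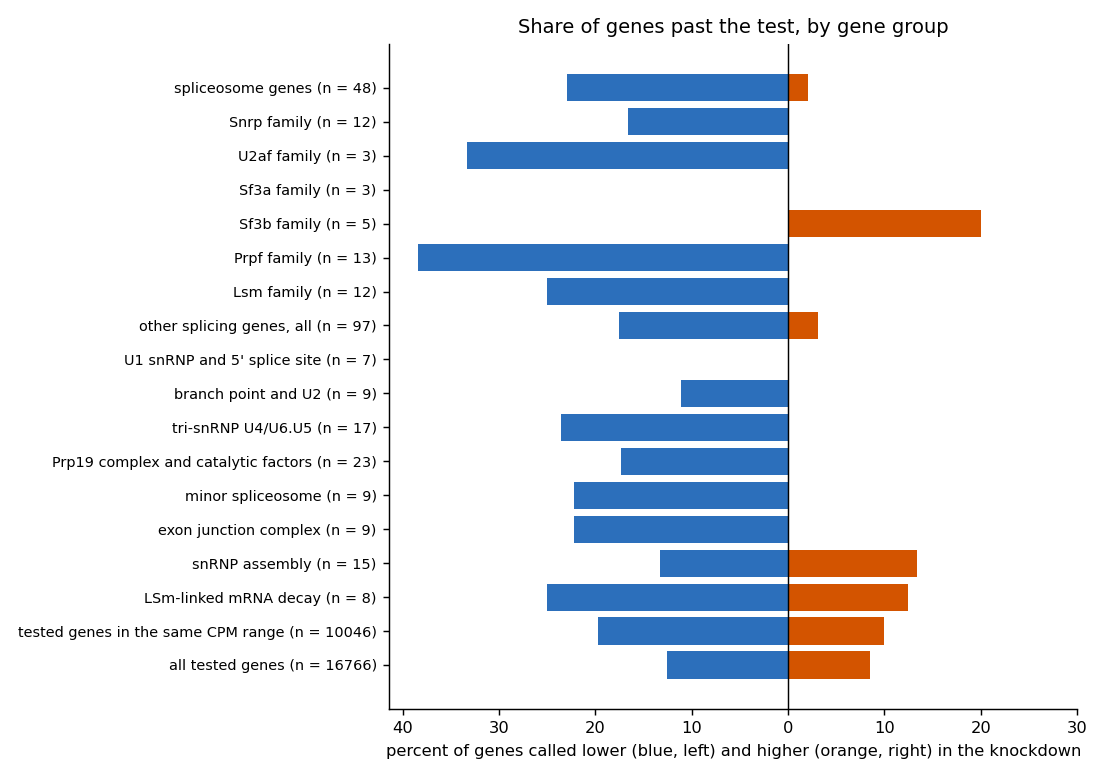
Share of genes (horizontal axis, percent) that rose or fell (adjusted p under 0.05), for the 48 spliceosome genes, each of the 6 families, the lists of other splicing genes, the tested genes in the same CPM range and all tested genes. The bar for lower genes is 22.9% for the 48 spliceosome genes and 19.7% for tested genes in the same range, and that for higher genes is 2.08% and 9.94%.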

How the data were processed

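The deposited file is a single table of raw read counts for each gene and each of the 6 libraries. The submitters' processing notes name TopHat2 2.0.8 and the build mm10. How reads were counted, whether strand was used and how multiply aligned reads were treated is not given in the sources used here. Groups and replicate numbers came from the sample titles.

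Counts were tested in edgeR 4.0.16 (R 4.3.3) by its quasi-likelihood F-test, two-sided, with TMM scaling and filterByExpr by group (minimum count 10, minimum total 15), and p-values were Benjamini-Hochberg adjusted over 16766 genes with a threshold of 0.05. The fit was tested on simulated data. No model term could stand for animals, which the labels do not assign. Per-length levels (RPKM, computed here from the deposited counts) used union exon lengths of GENCODE M21 (GRCm38), matched by gene number, and shared sequence was counted as 50-base words found in other genes' transcripts. A count total of this size leaves counting error small beside the spread between libraries: replicate pairs had a chi-square per gene of 58.5 to 156, where sampling noise alone gives about 1.

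The genes, the gene lists and the markers were chosen with earlier results of these data known. Values were given for genes that passed the test (up to 6 per family), for the 2 most abundant others per family and for a few core genes, in the other lists for up to 3 passing genes with the smallest p, and further genes were named after their values were seen. Alternatives were RLE and total-count scaling, DESeq2 1.42.0, limma-voom (limma 3.58.1), 2 other filters, the replicate number as a block and leaving out each library. LSm8 and Sf3b6, listed under other names, stayed outside the name rule. Results for 1 of the 48 genes are not reported here by name, and that gene stays in the counts and medians.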

Additional observations from a re-analysis of the deposited data

How the results depend on the processing

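Total-count scaling gave 2 higher and 6 lower spliceosome genes, 12 higher and 10 lower other splicing genes, and 2770 higher and 972 lower genes over all tested genes, against 1421 and 2115 by TMM, so that 74.0% of all passing genes were higher in place of 40.2%. The number of other splicing genes that rose was 6 by DESeq2 and 8 with a minimum mean of 1 CPM. Prpf40b, Prpf31, Prpf4b, Prpf38b and Lsm12 passed the test under every one of the 13 alternatives. When 1 library was left out, spliceosome genes gave 0 to 1 higher and 7 to 10 lower, other splicing genes 0 to 4 higher and 9 to 17 lower, and all tested genes 804 to 1356 higher and 1132 to 2054 lower. Where edgeR gave 0 higher spliceosome genes, when control 1, control 2 or knockdown 3 was left out, 1 had an unadjusted p under 0.05. Same-numbered libraries of the 2 groups had correlations of 0.056, 0.013 and 0.108 in their deviations from the group means. Differently numbered libraries had -0.101 to 0.048. Knockdown library 2 correlated best with control library 1 (0.048), and every other library correlated best with its own number. The labels do not state that the numbers mark pairs, so the main fit did not treat them as such. A shared effect of the replicate number was not tested. With the replicate block 19 of the 48 spliceosome genes were lower and 1 higher, and 22 of the 97 other splicing genes were lower and 8 higher. Of all 16766 tested genes 2789 were lower and 1924 higher. Of the 10046 in the same range of mean level as the 48 genes, 2614 were lower and 1382 higher. Values that changed sign were all of genes that did not pass the test: with total-count scaling Snrpd2 had a log2 fold change of 0.0019, Prpf19 0.023, Snrpa 0.15 and Lsm6 0.11, Snrpa had 0.022 with the minimum mean of 1 CPM, and Prpf8 had -0.013 by limma-voom and with the replicate block. Leaving out 1 library gave -0.11 to 0.054 for Snrpa, -0.17 to 0.077 for Lsm6, -0.28 to 0.18 for Prpf8, -0.051 to 0.13 for Sf3b2 and -0.028 to 0.12 for Lsm14a. Over 46 named genes and 13 alternatives, 503 of 598 values kept direction and side of the threshold, 73 no longer passed, 5 newly passed and 17 changed sign. The cause of these changes was not tested. The smallest difference among the spliceosome genes that passed was 1.25-fold, and no detection limit was computed for 3 libraries a group.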
